A study of Mus musculus with 16 samples.

Results

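The 9 genes Ddit4l, Eda2r, Mdm2, Ccng1, Trp53inp1, Phlda3, Zmat3, Plk2 and Aen, transcriptional targets of the tumour suppressor p53 that are grouped outside the classical apoptosis genes, were followed in mouse neural stem and progenitor cells with and without the histone lysine acetyltransferase KAT7 (HBO1). They were taken by name from the 27179 genes of the count files, and all 9 were found. The grouping is a loose one, because Aen encodes the apoptosis enhancing nuclease, and Eda2r and Trp53inp1 also have described links to cell death. The cells, dissected from foetal cortex and ganglionic eminence at embryonic day 14.5, were grown as neurospheres. Null cells had the genotype Kat7lox/loxNesCreT/+ and intact cells Kat7+/+NesCreT/+, so that both genotypes carried the Cre transgene, whose Nestin sequences act in neural progenitors. The 4 groups of 4 libraries were null differentiating and intact differentiating cells, kept after passage 3 for 3 days in cortical neuron medium on a laminin substrate, and null proliferating and intact proliferating cells, kept for 3 passages and 3 days in proliferation medium. Isolates came from 4 foetuses per genotype.

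p53 is a transcription factor that is held at a low level by the ubiquitin ligase MDM2 and is stabilised by DNA damage and other stresses. It binds pairs of short half-sites near its target genes, and many targets are also transcribed at a basal level in unstressed cells. Mdm2 is itself a target, which closes a negative feedback loop. In the developing brain p53 is best known for halting or removing neural progenitors when it is activated. The mRNA level of a target gene is not a direct measure of p53 activity, since other factors act on each of these genes.

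Library totals were 16.8 to 47.9 M counts, and the lowest count of any of the 9 genes in a library was 104 (Ddit4l in intact differentiating replicate 2). Kat7, the targeted gene, had 1 count over the null differentiating libraries and 8 over the null proliferating libraries, with means of 103 ± 3.08 CPM and 139 ± 5.59 CPM (SD, n = 4) in the intact groups. Among the cell type markers, the 7 neural stem and progenitor genes were measured in every group, while none of 6 microglial genes reached 1 CPM and 5 endothelial genes summed to at most 4.59 CPM in any library. Intact proliferating replicate 1 stood apart from its group. Its counts differed from those of the other intact proliferating libraries by a mean chi-square of 39.8 to 48.9 per gene, where 1 is the sampling noise and the other 3 differed among themselves by 1.84 to 7.28. Null proliferating replicate 4 (42.0 to 60.8, against 3.10 to 17.5) and intact differentiating replicate 1 (103 to 222, against 16.1 to 42.9) stood apart as well. Intact proliferating replicates 2 and 3 were the most alike of all replicate pairs, with a mean chi-square of 1.84 per gene, which is above sampling noise. Null proliferating replicates 2 and 3 came next, at 3.10. Whether the libraries of each of these pairs came from separate foetuses or cultures is not stated.

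Levels are given in counts per M counts (CPM) of the library after scaling by trimmed mean of M values (TMM), fold changes are on the log2 scale with the standard error (SE) of the fit, and a gene is said to be higher or lower when edgeR's quasi-likelihood test over 15177 genes gave a Benjamini-Hochberg adjusted p under 0.05. In bulk cultures such as these, fewer cells that express a gene and less RNA of it per cell cannot be told apart.

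The feedback arm is represented by Mdm2 (Entrez 17246; chromosome 10, 117688875 to 117710758, in GRCm38) and by Ccng1 (Entrez 12450; chromosome 11, 40748552 to 40755309), which encodes cyclin G1, a partner of protein phosphatase 2A that acts on MDM2. Growth and stress signalling is represented by Ddit4l (Entrez 73284; chromosome 3, 137623672 to 137628332), whose product, also called REDD2, restrains mTORC1. Phlda3 (Entrez 27280; chromosome 1, 135766085 to 135769134) encodes a small pleckstrin homology domain protein that competes with AKT for membrane lipids. Trp53inp1 (Entrez 60599; chromosome 4, 11156441 to 11174379) encodes a nuclear stress protein that cooperates with p53 and takes part in autophagy. Plk2 (Entrez 20620; chromosome 13, 110395044 to 110400844) encodes a polo-like kinase of centriole duplication and of synaptic plasticity. Eda2r (Entrez 245527; chromosome X, 97333837 to 97377234) encodes a receptor of the tumour necrosis factor receptor family for the ligand ectodysplasin A2. Zmat3 (Entrez 22401; chromosome 3, 32334792 to 32365665) encodes a zinc finger protein that binds RNA, and Aen (Entrez 68048; chromosome 7, 78895927 to 78911209) encodes an exonuclease. All 9 are annotated as protein coding. Zmat3 shares 177 bases with the lncRNA gene 4930429B21Rik and Eda2r overlaps a pseudogene, Gm18111, so that reads from those stretches could not be told apart.

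To show the DNA next to which these genes are transcribed, the promoter windows in the RefSeq table of GRCm38.p6, from 250 bases before to 50 bases after a start site, were searched for exact matches to the p53 half-site consensus. This consensus of 10 bases is its own reverse complement, so that both strands are covered by 1 search. Windows were held for 7 of the 9 genes, and 4 of these 7 (Ddit4l, Mdm2, Ccng1 and Aen) had a match. Among the genes tested in this experiment that have a window, 931 of 11316 (8.23%) had 1, and among all genes with a window 9.55% did. The matches are shown in capitals on the strand of the gene, with flanking bases in lower case.
Ddit4l (chr3:137623562-137623611, plus strand): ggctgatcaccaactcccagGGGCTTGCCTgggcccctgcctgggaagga
Mdm2 (chr10:117710915-117710964, minus strand): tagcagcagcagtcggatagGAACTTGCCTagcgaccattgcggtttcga
Ccng1 (chr11:40755442-40755491, minus strand): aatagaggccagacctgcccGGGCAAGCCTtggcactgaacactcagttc
Aen (chr7:78895927-78895956, plus strand): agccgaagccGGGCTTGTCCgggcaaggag

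The matches began 90 bases before the start site in Ddit4l, 186 bases before it in Mdm2 and 185 bases before it in Ccng1. That of Aen lay 121 bases before the second annotated start site and 10 bases after the first. A p53 response element is usually a pair of half-sites. The match in Ccng1 had a second half-site with at most 1 mismatch within 13 bases of it, a search made after the exact matches had been seen, and 0.601% of the tested genes with a window had such a pair. The windows of Phlda3, Plk2 and Eda2r held no exact match, which says only that these letters are not in this stretch.

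Per length of transcript, Ccng1 was the most abundant of the 9 genes in every group, at 52.7 ± 6.52 RPKM (reads per kilobase of gene model and per M reads, SD, n = 4) in null differentiating, 33.0 ± 4.72 RPKM in intact differentiating, 187 ± 23.1 RPKM in null proliferating and 132 ± 31.4 RPKM in intact proliferating cells. Below it the order depended on genotype. Ddit4l was the second of the 9 in null proliferating cells at 113 ± 9.73 RPKM and the last in intact proliferating cells at 20.8 ± 3.72 RPKM. In differentiating cells it followed Ccng1 and Trp53inp1 at 36.8 ± 2.52 RPKM in null cells, within the spread of Trp53inp1 at 37.9 ± 2.23 RPKM, and was the last but 1 at 1.56 ± 0.385 RPKM in intact cells, within the spread of Eda2r at 1.41 ± 0.375 RPKM. Phlda3, Aen and Trp53inp1 were close to each other in null proliferating cells (59.4 ± 13.3, 49.7 ± 4.71 and 50.9 ± 1.61 RPKM) and did not differ beyond their spread.

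**Figure D1:**
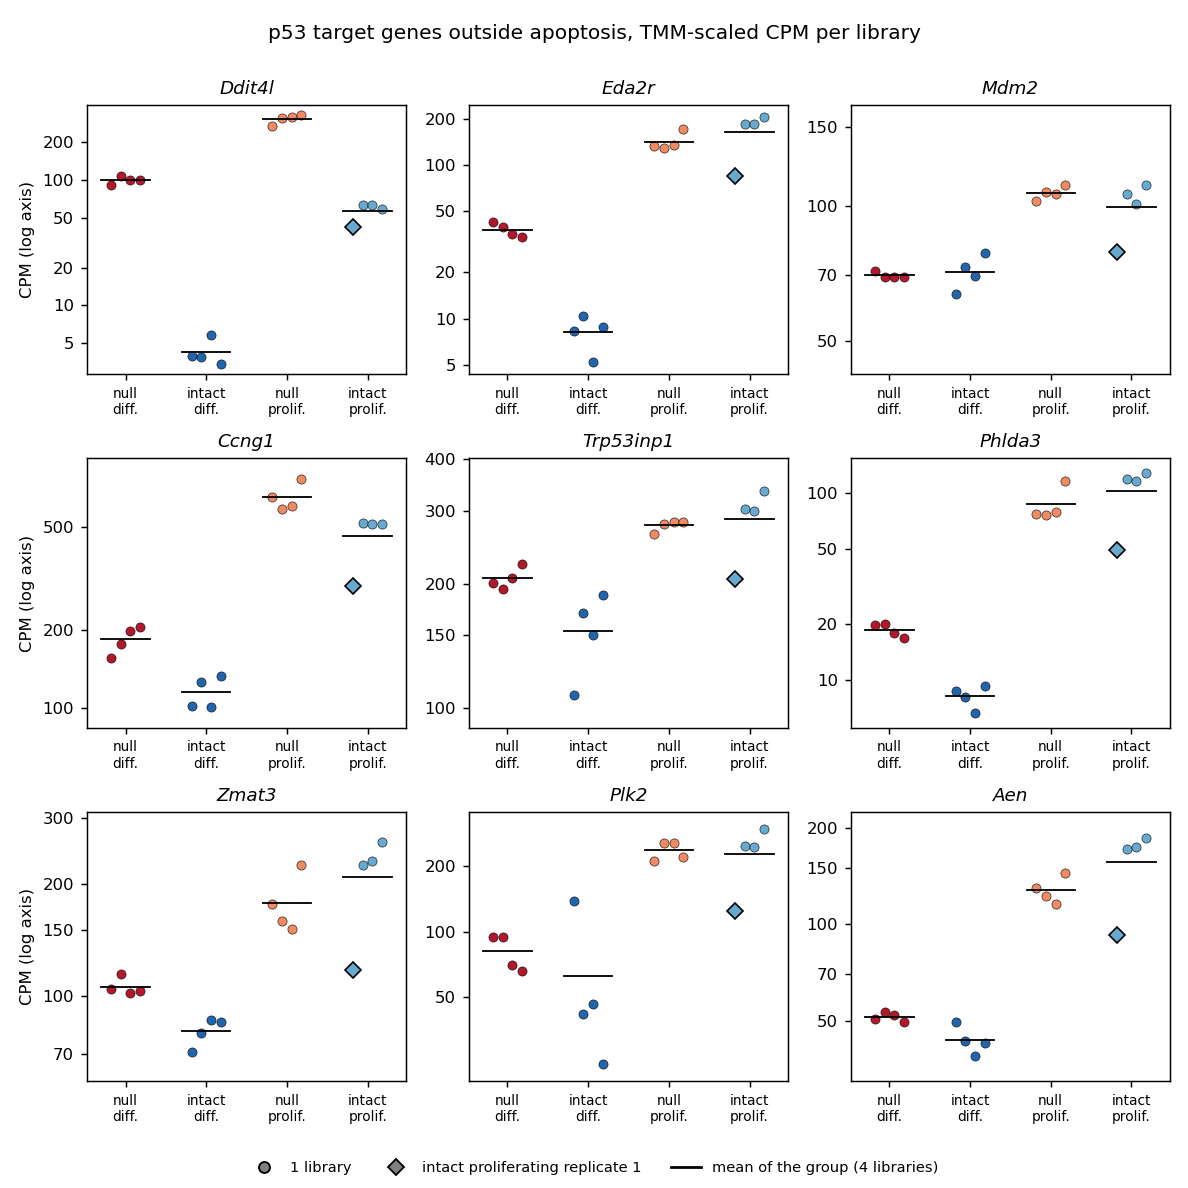
TMM-scaled CPM (log axis) of the 9 genes in each of the 16 libraries, by group, with null left of intact and differentiating left of proliferating cells. Every gene was lower on average in the differentiating groups, the Ddit4l points of null and intact cells do not overlap in either condition, and the diamond, intact proliferating replicate 1, is the lowest of its group in all 9 panels.

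The question of the genotype comparison is how mRNA levels differ without KAT7. In differentiating cells, 5 of the 9 genes were higher in null than in intact cells and none was lower, where 24.3% of all 15177 genes were higher and 22.0% lower. The 5 were Ddit4l, Eda2r, Phlda3, Ccng1 and Trp53inp1. The median log2 fold change was 0.42 over the 9 genes and 0.04 over all genes. Mdm2, the feedback regulator, was nearly level.

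Ddit4l, the mTORC1 restrainer, had 91.4, 108, 100.1 and 101 CPM in the null differentiating libraries, against 3.95, 3.87, 5.79 and 3.42 CPM in the intact differentiating libraries. All null libraries were above all intact ones, and the gene was 23.7-fold higher in null cells (log2 fold change 4.56 ± 0.17, SE, edgeR adjusted p = 2.4e-10). For the receptor gene Eda2r the values were 42.6, 39.3, 35.6 and 34.1 CPM in null cultures and 8.33, 10.5, 5.24 and 8.84 CPM in intact differentiating cultures. The groups did not overlap, with a log2 fold change of 2.20 ± 0.25 (edgeR adjusted p = 6.2e-06). The AKT competitor Phlda3 was at 19.7, 19.9, 17.9 and 16.8 CPM in null cultures and 8.70, 8.12, 6.68 and 9.32 CPM in intact differentiating cultures. It too was higher in every null library, by 1.17 ± 0.24 (edgeR adjusted p = 9.8e-04).

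Ccng1 and Trp53inp1 changed less. Ccng1 had 156, 176, 198 and 206 CPM in null differentiating cells and 102, 126, 101 and 132 CPM in intact differentiating cells, without overlap (log2 fold change 0.68 ± 0.16, edgeR adjusted p = 0.00353). Trp53inp1 had 201, 194, 206 and 222 CPM in null cultures and 108, 170.0, 150.4 and 188 CPM in intact differentiating cultures, again without overlap (0.42 ± 0.15, edgeR adjusted p = 0.0342). This last call was narrow. It was lost under library size scaling (adjusted p = 0.0909), and without intact differentiating replicate 1, the lowest library, the log2 fold change was 0.28 ± 0.13 (edgeR adjusted p = 0.0869). It was also lost without intact differentiating replicate 3 (adjusted p = 0.0713) or null differentiating replicate 1, 3 or 4 (0.0528, 0.0609 and 0.0818).

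The other 4 genes did not pass the test in differentiating cells. Mdm2 was at 69.9 ± 1.09 CPM in null cultures and 71.2 ± 6.16 CPM in intact cultures (SD, n = 4 each; log2 fold change -0.03 ± 0.09, edgeR adjusted p = 0.821). Zmat3 was at 106 ± 6.01 CPM in null cultures and 80.5 ± 6.98 CPM in intact cultures, without overlap between libraries (0.40 ± 0.18, edgeR adjusted p = 0.0913), and Aen at 51.3 ± 1.74 CPM in null cultures and 43.5 ± 4.47 CPM in intact cultures with 1 intact library inside the null range (0.24 ± 0.16, edgeR adjusted p = 0.244). The kinase gene Plk2 had 94.4, 94.7, 70.5 and 65.9 CPM in null cultures and 138, 41.7, 46.3 and 24.5 CPM in intact differentiating cultures. Its intact spread was set by replicate 1, at 138 CPM above every null library, while the other 3 intact libraries were below every null library. With all libraries the log2 fold change was 0.38 ± 0.40 (edgeR adjusted p = 0.463), and without intact differentiating replicate 1 it was 1.12 ± 0.26 (edgeR adjusted p = 0.00312).

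Intact proliferating replicate 1, which is described further on, also bore on these calls through the spread shared by all groups. Without it, Zmat3 (0.40 ± 0.11, edgeR adjusted p = 0.00730) and Aen (0.24 ± 0.08, 0.0198) were called higher in null differentiating cells at nearly the same fold change, which makes 7 of the 9 genes against 26.0% of all genes. Without both intact replicate 1 libraries 8 of the 9 were higher, all but Mdm2, against 26.6% of all genes. As intact proliferating replicate 1 was the lowest of its group for all 9 genes, its removal narrows their spread by construction. The shares of all genes are no like baseline here.

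Intact differentiating replicate 1 also had the highest level of the 8 neuronal markers together, at 5323 CPM against 1898 to 2794 CPM in the other 3 intact differentiating libraries, with 2090 to 2485 CPM in the null differentiating libraries. In the null differentiating libraries this sum was mostly Map2, at 1451 to 1747 CPM. In the intact differentiating libraries Map2 was at 1264 to 1284 CPM, a minor part of the 5323 CPM of replicate 1. While Map2 was higher in null cells, other neuronal markers went the other way. Stmn2 was at 0.314 to 0.852 CPM in null and 41.7 to 736 CPM in intact differentiating cells, Syt1 at 0.797 to 2.13 CPM in null and 28.2 to 204 CPM in intact cells, and Nefl at 0.705 to 1.22 CPM in null and 5.72 to 28.6 CPM in intact cells. For Tubb3, Dcx, Snap25 and Rbfox3 the libraries of the genotypes overlapped. The 7 oligodendrocyte lineage markers together were at 1017 to 1201 CPM in null and 3021 to 5940 CPM in intact differentiating cells, and the 7 astrocyte markers at 3748 to 6119 CPM in null and 941 to 1703 CPM in intact differentiating cells. The 6 cycling markers summed to 438 to 525 CPM in null and 231 to 325 CPM in intact differentiating cells. The 7 neural stem and progenitor markers summed to 4950 to 6554 CPM in null and 3245 to 4281 CPM in intact differentiating cells. Not every gene of this sum was higher in null cells. Nes was, at 246 to 280 CPM in null and 132 to 185 CPM in intact cells. Sox2 was at 486 to 577 CPM in null cells, below intact replicates 2 to 4 (636 to 800 CPM) and above intact replicate 1 (330 CPM). The 6 mesenchymal markers were low, at 15.4 to 28.6 CPM in null and 52.7 to 187 CPM in intact differentiating cells. The markers thus differed along with the 9 genes, and their part in these differences was not tested.

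In proliferating cells the picture was different. Only Ddit4l and Ccng1 of the 9 genes were higher in null cells and none was lower, where 19.0% of all genes were higher and 19.7% lower. The median log2 fold change was -0.05 over the 9 genes and -0.01 over all genes.

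Ddit4l had 271, 311, 318 and 333 CPM in null proliferating and 41.9, 63.3, 63.1 and 58.5 CPM in intact proliferating libraries. No libraries overlapped, and the gene was 5.44-fold higher in null cells (log2 fold change 2.44 ± 0.15, edgeR adjusted p = 3.6e-08). Ccng1 had 651, 588, 603 and 766 CPM in null cultures and 296, 519, 512 and 514 CPM in intact proliferating cultures, again without overlap (0.50 ± 0.16, edgeR adjusted p = 0.0241). The Ccng1 call rested in part on null proliferating replicate 4, its highest library, and without that library the adjusted p was 0.0719 (log2 fold change 0.42).

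The other 7 genes were read against a control group that held 1 library unlike the rest. Eda2r had 132, 128, 135 and 171 CPM in null cultures and 84.5, 184, 185 and 205 CPM in intact proliferating cultures, Phlda3 76.9, 76.5, 78.8 and 116 CPM in null cultures and 49.7, 119, 116 and 127 CPM in intact cultures, and Aen 130.0, 123, 116 and 144 CPM in null cultures and 92.6, 171, 175 and 187 CPM in intact cultures. In each of these genes the null libraries lay above intact replicate 1 and, save Phlda3 in null replicate 4, below intact replicates 2 to 4. Zmat3 had 176, 159, 151 and 224 CPM in null cultures and 118, 225, 229.7 and 259 CPM in intact proliferating cultures, with the same arrangement. With all libraries in the fit, their log2 fold changes were -0.21 (Eda2r), -0.24 (Phlda3), -0.28 (Aen) and -0.23 (Zmat3), with edgeR adjusted p between 0.173 and 0.480.

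Without intact proliferating replicate 1 these 4 genes were lower in null proliferating cells, where 19.8% of all genes were lower in the same fit. The log2 fold changes were -0.47 ± 0.08 for Aen (edgeR adjusted p = 5.3e-04), -0.42 ± 0.12 for Zmat3 (0.0103), -0.47 ± 0.14 for Phlda3 (0.0150) and -0.43 ± 0.16 for Eda2r (0.0423). Ddit4l and Ccng1 remained higher, where 20.6% of all genes were, at 2.32 ± 0.13 and 0.34 ± 0.12 (edgeR adjusted p = 4.1e-08 and 0.0406). The median over the 9 genes was then -0.18. Intact proliferating replicate 1 was the lowest of its group for all 9 genes, so leaving it out raises their intact mean by construction. The shares of all genes are therefore no like baseline for these calls. When the alike proliferating replicates 2 and 3 of each genotype were also summed into 1 library, an alternative chosen after seeing the data, Aen and Zmat3 kept their calls (adjusted p = 0.00541 and 0.0474) and Eda2r, Phlda3 and Ccng1 did not.

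Mdm2, Trp53inp1 and Plk2 did not pass the test in proliferating cells with or without that library. Mdm2 was at 107 ± 3.58 CPM in null cultures and 99.3 ± 14.2 CPM in intact proliferating cultures (0.11 ± 0.09, edgeR adjusted p = 0.360). Trp53inp1 was at 276 ± 8.74 CPM in null cultures and 286 ± 55.7 CPM in intact cultures (-0.05 ± 0.15, edgeR adjusted p = 0.837), and Plk2 at 237 ± 23.5 CPM in null cultures and 229 ± 73.4 CPM in intact cultures (0.05 ± 0.39, edgeR adjusted p = 0.940). The sign of the Plk2 difference turned without intact replicate 1. Trp53inp1 shared the arrangement of Eda2r, Phlda3, Aen and Zmat3. Its null libraries, at 263 to 282 CPM, lay above intact replicate 1 (205 CPM) and below intact replicates 2 to 4 (300 to 334 CPM). Without intact replicate 1 its log2 fold change was -0.18 ± 0.13 (edgeR adjusted p = 0.311).

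Markers differed between genotypes in proliferating cells too. The astrocyte markers summed to 1178 to 1905 CPM in null and 389 to 791 CPM in intact proliferating cells, and the oligodendrocyte lineage markers to 774 to 934 CPM in null and 1302 to 1740 CPM in intact proliferating cells. The 8 neuronal markers together overlapped, at 1009 to 1215 CPM in null and 946 to 1078 CPM in intact proliferating cells. Single neuronal markers could differ from this sum. Dcx was at 0 to 1.90 CPM in null and 5.31 to 35.6 CPM in intact proliferating cells. Syt1 was at 0.628 to 1.47 CPM in null and 10.7 to 31.4 CPM in intact proliferating cells. The cycling markers were at 1978 to 2350 CPM in null and 2343 to 2781 CPM in intact proliferating cells. Their part in the genotype differences of the 9 genes was not tested.

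**Figure D2:**
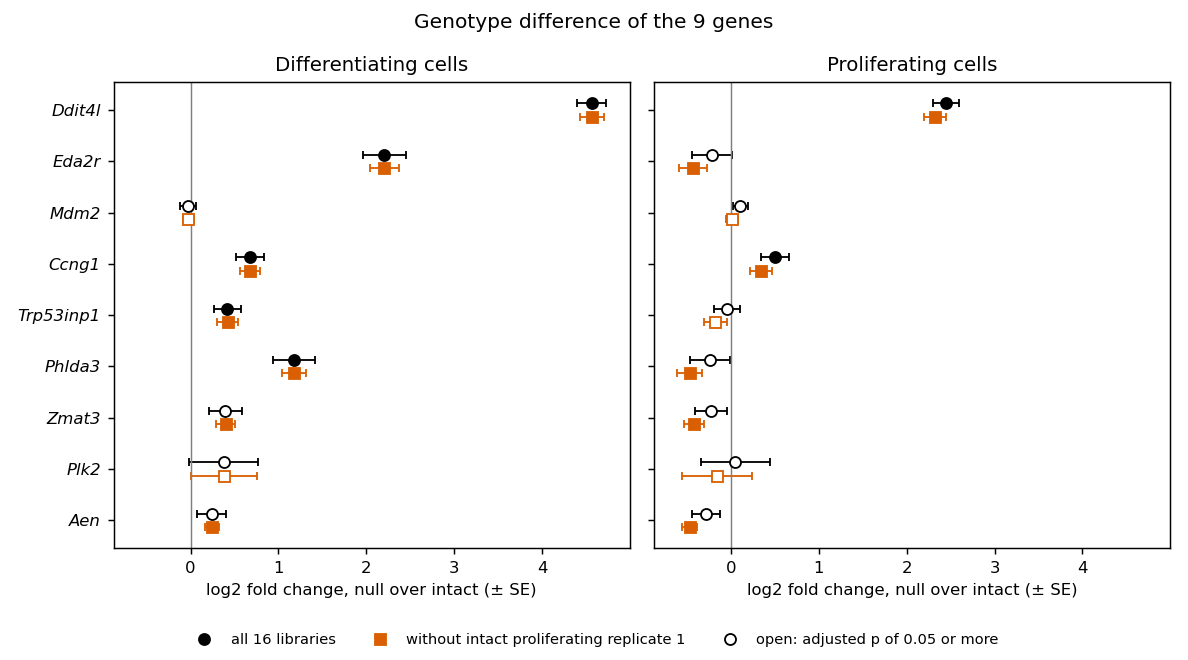
Log2 fold change of null over intact cells (± SE, edgeR) for the 9 genes in differentiating (left) and proliferating cells (right), with all 16 libraries (black circles) and without intact proliferating replicate 1 (orange squares); open symbols have an adjusted p of 0.05 or more. Ddit4l lies far to the right in both panels, at 4.56 and 2.44 with all libraries. Eda2r, Phlda3, Zmat3, Aen and Trp53inp1 lie left of 0 in proliferating and right of 0 in differentiating cells. With all libraries none of these was called in proliferating cells, and Zmat3 and Aen were not called in differentiating cells.

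Null proliferating replicate 4 was the highest null proliferating library for 7 of the 9 genes, while it was the highest for 38.8% and the lowest for 35.0% of all genes tested. Such a count was not particular to it. Intact proliferating replicate 4 was also the highest of its group for 7 of the 9 genes, and for 24.5% of all genes. Phlda3 was at 116 CPM in null proliferating replicate 4, against 76.5 to 78.8 CPM in the other null proliferating libraries. The 7 astrocyte markers together were at 1905 CPM in that library and at 1178 to 1235 CPM in the other 3, and the cycling markers at 1978 CPM against 2249 to 2350 CPM. Their part in the higher values was not tested.

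Upon differentiation all 9 genes fell in both genotypes. Of all genes, 34.4% fell in null cells and 35.3% fell in intact cells. The median log2 fold change over the 9 genes was -1.54 in null and -1.87 in intact cells, against 0.02 over all genes in each genotype.

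In null cells the falls were -2.23 ± 0.24 for Phlda3, -1.90 ± 0.23 for Eda2r, -1.83 ± 0.17 for Ccng1 and -1.62 ± 0.14 for Ddit4l on the log2 scale, with edgeR adjusted p between 1.1e-07 and 4.0e-06. Plk2 fell by 1.54 ± 0.40, Aen by 1.32 ± 0.16, Zmat3 by 0.74 ± 0.18 and Mdm2 by 0.61 ± 0.09 (edgeR adjusted p at most 0.00317). Trp53inp1 had the smallest fall (-0.42 ± 0.15, edgeR adjusted p = 0.0212), to 206 ± 12.1 CPM in differentiating cells against 276 ± 8.74 CPM in proliferating cells. Its call was lost without null differentiating replicate 2 (adjusted p = 0.0558).

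In intact cells, Eda2r fell most, to 8.22 ± 2.18 CPM in differentiating cells against 164 ± 54.2 CPM in proliferating cells (log2 fold change -4.32 ± 0.26, SE, edgeR adjusted p = 2.2e-09). Ddit4l fell by 3.74 ± 0.16 on the log2 scale (edgeR adjusted p = 5.7e-11) and Phlda3 by 3.65 ± 0.25 (edgeR adjusted p = 1.0e-08). In these 3 genes every differentiating library was far below every proliferating one. Ccng1 (-2.0 ± 0.17), Plk2 (-1.87 ± 0.41), Aen (-1.85 ± 0.17) and Zmat3 (-1.37 ± 0.19) fell less, and Trp53inp1 (-0.89 ± 0.15) and Mdm2 (-0.48 ± 0.09) least, each with an edgeR adjusted p of at most 7.6e-04. The intact libraries of Plk2 overlapped between conditions, as differentiating replicate 1 at 138 CPM was above proliferating replicate 1 at 125 CPM. Without both libraries the 9 genes fell as well.

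The falls differed between genotypes for 3 of the 9 genes, by the test of the difference itself, where 12.7% of all genes had a response that was called higher in null cells. The null response minus the intact response was 2.42 ± 0.33 on the log2 scale for Eda2r (edgeR adjusted p = 2.2e-04), 2.12 ± 0.21 for Ddit4l (1.9e-05) and 1.41 ± 0.33 for Phlda3 (0.00682). On this scale these 3 genes fell in both genotypes and fell less in null cells. In CPM, Ddit4l fell from 309 to 100 in null and from 56.7 to 4.26 in intact cells, so its fall in level was larger in null cells. The interaction values also say that the genotype difference of these 3 genes on the log2 scale was larger in differentiating than in proliferating cells.

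For Zmat3, Aen, Trp53inp1 and Plk2 the interaction was positive but not called (0.62, 0.52, 0.47 and 0.33, edgeR adjusted p between 0.0984 and 0.705). Without intact proliferating replicate 1, Zmat3 (0.82 ± 0.16, edgeR adjusted p = 0.00218), Aen (0.71 ± 0.11, 6.3e-04) and Trp53inp1 (0.60 ± 0.18, 0.0266) were called too, which makes 6 of 9 against 14.0% of all genes in that fit. Leaving out the library that was lowest of its group for all 9 genes raises their interaction by construction, so this share is no like baseline. Plk2 was called without intact differentiating replicate 1 (1.07, adjusted p = 0.0376) and Zmat3 without null proliferating replicate 4 (0.76, adjusted p = 0.0463). Without both intact replicate 1 libraries Plk2 was added to the 6 (1.28 ± 0.26, edgeR adjusted p = 0.00242), which makes 7 of 9 against 16.3%. Ccng1 (0.17 ± 0.23, edgeR adjusted p = 0.622) and Mdm2 (-0.14 ± 0.13, 0.465) were not called in any of these 3 fits. For Mdm2 the interaction lay between -0.20 and -0.01 over all alternatives.

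**Figure D3:**
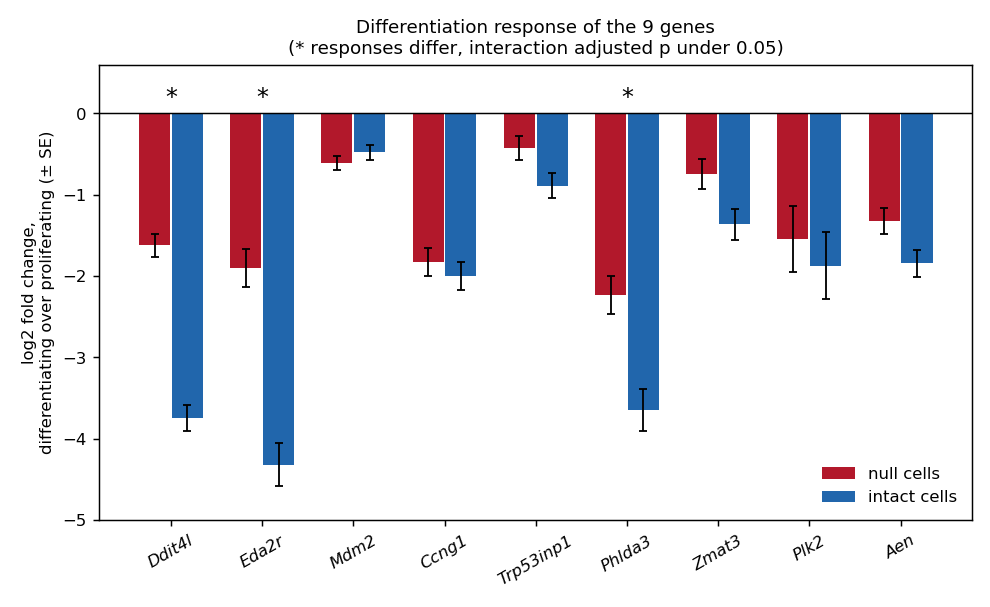
Log2 fold change of differentiating over proliferating cells (± SE, edgeR, all 16 libraries) for the 9 genes in null (red) and intact cells (blue). All bars point down, and the stars mark Ddit4l, Eda2r and Phlda3, whose falls of 1.62 to 2.23 in null cells were smaller than those of 3.65 to 4.32 in intact cells by the interaction test.

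Intact proliferating replicate 1 was the lowest library of its group for all 9 genes, while it was the lowest for 40.3% and the highest for 41.3% of all genes tested. This library and these genes were picked out with earlier results of these data known, so these shares are no like baseline. The library had 49.7 CPM of Phlda3, against 121 ± 6.11 CPM (SD, n = 3) in replicates 2 to 4, which is 41.1% of their mean. Eda2r was at 44.2%, Plk2 at 47.2%, Zmat3 at 49.5%, Aen at 52.1% and Ccng1 at 57.5% of that mean. The smallest shortfalls were those of Trp53inp1 (65.7%), Ddit4l (68.0%) and Mdm2 (74.5%). For Mdm2 the library, at 79.0 CPM, was close to intact differentiating replicate 4 at 78.4 CPM.

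The place of this library between the 2 intact states was expressed as the share of the log2 distance from the mean of proliferating replicates 2 to 4 (0%) to the mean of the intact differentiating libraries (100%). It was computed for the 8 genes with a distance of at least 1 on the log2 scale, which leaves out Mdm2. Zmat3 was at 64.7%, Trp53inp1 at 57.6%, Aen at 46.2% and Plk2 at 45.2%. Ccng1 was at 36.7%, Phlda3 at 33.0%, Eda2r at 25.7% and Ddit4l at 14.4%. The median of the 8 was 41.0%, and that of all 2217 genes that were lower by at least 1 in intact differentiating cells was 18.1%. Genes that were higher by at least 1 in intact differentiating cells had a median of 38.4%. With 1 library these values have no replicate. The genes and this library were picked out with earlier results of these data known, so the gap between the medians is no independent finding.

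Marker sums of this library also differed from those of its group. Its oligodendrocyte lineage markers summed to 1740 CPM against 1302 to 1405 CPM in replicates 2 to 4, and its astrocyte markers to 791 CPM against 389 to 409 CPM. Of its 8 neuronal markers, 5 lay above replicates 2 to 4 and 3 below. Those above were Stmn2 (15.0 CPM against 0.379 to 0.921 CPM), Dcx (35.6 against 5.31 to 9.31 CPM), Tubb3 (37.8 against 10.4 to 12.2 CPM), Snap25 (7.41 against 1.89 to 2.85 CPM) and Nefl (3.34 against 1.35 to 2.03 CPM). Those below were Syt1, Rbfox3 and Map2, and Map2, at 831 CPM against 1012 to 1026 CPM, made up most of the neuronal sum of 946 CPM against 1074 to 1078 CPM. The cycling markers summed to 2343 CPM, against 2556 to 2781 CPM in replicates 2 to 4 and 231 to 325 CPM in intact differentiating cells. The part of these differences in its low p53 target levels was not tested.

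**Figure D4:**
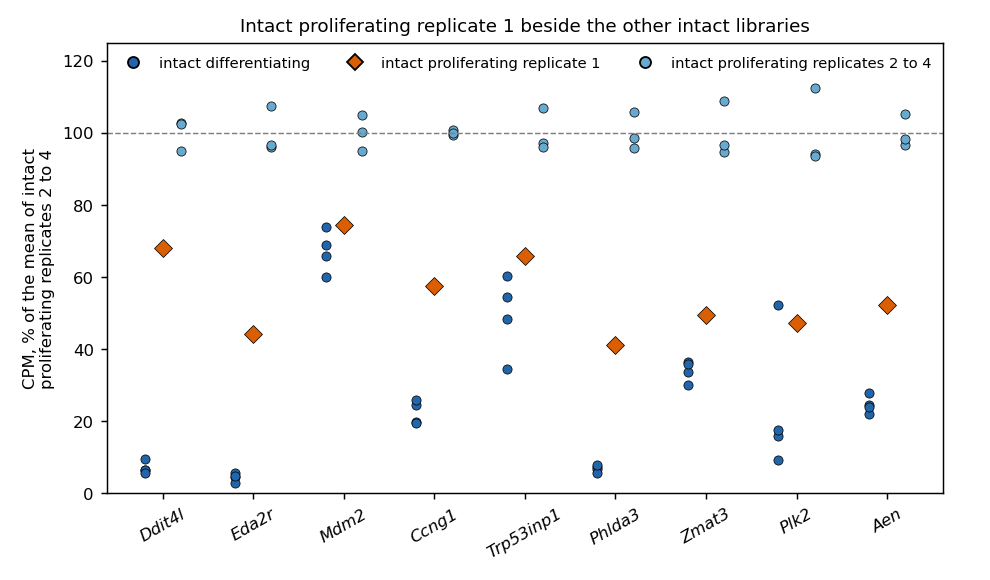
CPM of the 9 genes in the intact libraries as a percentage of the mean of intact proliferating replicates 2 to 4 (dashed line at 100%), with intact differentiating libraries in dark blue, intact proliferating replicate 1 as an orange diamond and replicates 2 to 4 in light blue. The diamond lies between 41.1% (Phlda3) and 74.5% (Mdm2), below all light blue points and, save for Plk2, above the dark blue points.

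Around the 9 genes, lists of p53 regulators and of further p53 targets were examined. In differentiating cells, 8 of 22 tested regulators were higher in null cells and 1 was lower (median log2 fold change 0.25), where 24.3% of all genes were higher and 22.0% lower, and in proliferating cells 2 of the 22 were higher and 6 lower (median -0.06), where 19.0% of all genes were higher and 19.7% lower. Without both intact replicate 1 libraries these counts were 11 higher and 3 lower in differentiating cells (26.6% and 23.0% of all genes) and 2 higher and 7 lower in proliferating cells (24.1% of all genes each way). A further regulator, Trp63, was below the count filter. Trp53, which encodes p53 itself, had 93.9, 83.2, 83.3 and 75.3 CPM in null cultures and 98.1, 125, 127 and 125 CPM in intact proliferating cultures. Every null library was below every intact one (-0.50 ± 0.10, edgeR adjusted p = 8.8e-04). In differentiating cells it was at 66.3 ± 3.59 CPM in null cultures and 57.1 ± 6.11 CPM in intact cultures and did not pass the test (0.22 ± 0.10, edgeR adjusted p = 0.0775; 0.0353 without intact proliferating replicate 1), and the interaction was called (0.71 ± 0.14, edgeR adjusted p = 0.00191). Mdm4, the partner of MDM2 in restraining p53, was lower in null proliferating cells (-0.21 ± 0.06, edgeR adjusted p = 0.0154) and at 81.7 ± 1.08 CPM in null cultures against 74.2 ± 3.23 CPM in intact differentiating cultures (0.14 ± 0.06, edgeR adjusted p = 0.0802; 0.0440 without intact differentiating replicate 1).

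Kinases that signal DNA damage to p53 were among the higher regulators in null differentiating cells. Chek2, the checkpoint kinase 2, was at 9.45 ± 1.04 CPM in null cultures and 3.56 ± 0.352 CPM in intact differentiating cultures (1.41 ± 0.11, edgeR adjusted p = 2.0e-07), Atm was higher by 0.81 ± 0.15 (3.5e-04) and Atr by 0.58 ± 0.06 (5.1e-06). Usp7, a deubiquitinase of MDM2 and p53, was higher in null cells in both conditions (0.61 ± 0.07 in differentiating and 0.29 ± 0.07 in proliferating cells, edgeR adjusted p = 4.5e-06 and 0.00283). Cdkn2a, whose locus encodes the MDM2 inhibitor ARF next to the CDK inhibitor p16, was at 6.30 ± 1.26 CPM in null cultures and 1.25 ± 0.341 CPM in intact differentiating cultures (2.34 ± 0.41, edgeR adjusted p = 2.8e-04). Counts per gene do not tell these 2 products apart.

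Of 25 further targets for arrest, repair and metabolism, 9 were higher and 4 lower in null differentiating cells (median 0.26), against 24.3% and 22.0% of all genes. In null proliferating cells 6 of the 25 were higher and 5 lower (median 0.05), shares close to the 19.0% and 19.7% of all genes. Without both intact replicate 1 libraries, 11 were higher and 4 lower in differentiating cells (26.6% and 23.0% of all genes). In proliferating cells 5 were then higher and 7 lower (median -0.07), with 24.1% of all genes each way. Cdkn1a, which encodes the cell cycle inhibitor p21, had 47.7, 38.8, 34.6 and 44.4 CPM in null cultures and 14.9, 11.2, 9.32 and 10.3 CPM in intact differentiating cultures (1.85 ± 0.31, edgeR adjusted p = 2.0e-04). In proliferating cells it had 355, 283, 298 and 526 CPM in null cultures and 152, 429.7, 446 and 509 CPM in intact cultures, where intact replicate 1 was again the lowest (-0.07 ± 0.29, edgeR adjusted p = 0.874). Btg2, an antiproliferative gene of neurogenic progenitors, was higher in null differentiating cells (1.41 ± 0.21, 6.8e-05), as were Gtse1 (1.21 ± 0.17, 5.7e-05), a G2 phase regulator of p53, and the DNA damage sensor Xpc (0.84 ± 0.08, 2.3e-06). The arrest gene Rprm was lower in null cells in both conditions (-2.49 ± 0.31 in differentiating and -1.66 ± 0.31 in proliferating cells, edgeR adjusted p = 1.5e-05 and 5.9e-04). Plk3, a polo-like kinase, was lower in null differentiating cells (-1.62 ± 0.21, edgeR adjusted p = 2.3e-05).

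Of 13 apoptotic p53 targets, 5 were higher and 1 lower in null differentiating cells (median 0.30), against 24.3% and 22.0% of all genes, and 2 were higher and 1 lower in null proliferating cells (median 0.11), against 19.0% and 19.7% of all genes. The death receptor genes Tnfrsf10b (1.44 ± 0.27, edgeR adjusted p = 5.4e-04) and Fas (2.52 ± 0.54, 0.00141) and the apoptosome gene Apaf1 (0.50 ± 0.12, 0.00275) were higher in null differentiating cells. Perp was lower in both conditions, at 0.0777 ± 0.0503 CPM in null cultures and 1.27 ± 0.692 CPM in intact differentiating cultures (-4.15 ± 0.61, edgeR adjusted p = 6.3e-05), and with a log2 fold change of -3.76 ± 0.59 (1.6e-04) in proliferating cells. Bid and Cdip1 were higher in null proliferating cells, by 0.72 ± 0.18 and 0.25 ± 0.07 (edgeR adjusted p = 0.00548 and 0.00903). Leaving out both intact replicate 1 libraries gave 8 higher and 1 lower of the 13 in differentiating cells (26.6% and 23.0% of all genes), and 2 higher and 3 lower in proliferating cells (24.1% of all genes each way).

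**Figure D5:**
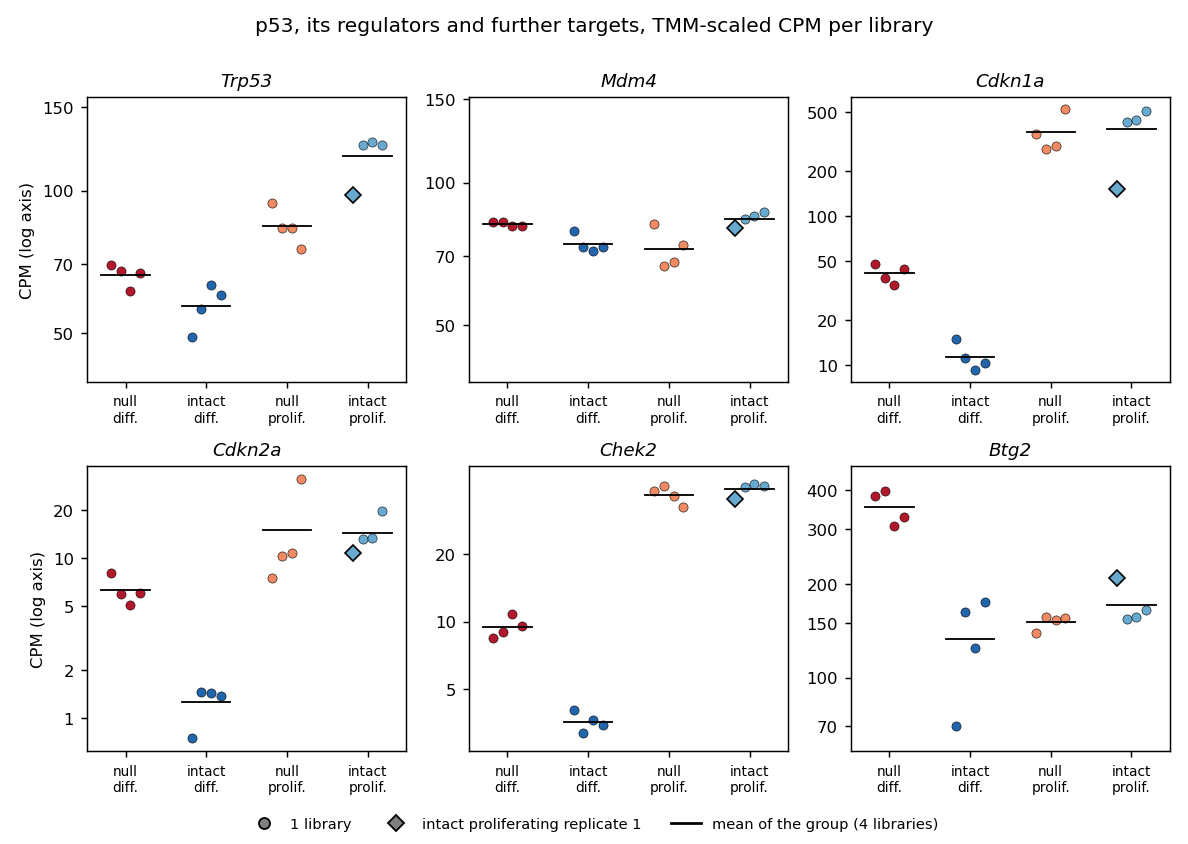
TMM-scaled CPM (log axis) per library of Trp53, Mdm4, Cdkn1a, Cdkn2a, Chek2 and Btg2, by group, with the means as lines and intact proliferating replicate 1 as a diamond. Cdkn1a, Cdkn2a, Chek2 and Btg2 are higher in null than in intact differentiating cells without overlap, and the Trp53 points of null proliferating cells all lie below those of intact proliferating cells.

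Of the close relatives of the 9 genes that were tested, 3 of 17 were higher and 4 lower in null differentiating cells, against 24.3% and 22.0% of all genes, and 3 were higher and 6 lower in null proliferating cells, against 19.0% and 19.7% of all genes. Without both intact replicate 1 libraries the counts were 7 higher and 4 lower in differentiating cells (26.6% and 23.0% of all genes) and 3 higher and 7 lower in proliferating cells (24.1% of all genes each way). Plk3 and Trp53inp2 stood on this list and on that of further targets. Ddit4, the paralogue of Ddit4l, was lower in null cells, at 133 ± 6.04 CPM in null cultures and 160.3 ± 19.7 CPM in intact differentiating cultures (-0.27 ± 0.11, edgeR adjusted p = 0.0450) and at 114 ± 17.2 CPM in null cultures and 171 ± 15.8 CPM in intact proliferating cultures (-0.59 ± 0.11, 5.2e-04). Eda, whose product includes the ligand of the Eda2r receptor, was lower in null cells too, with log2 fold changes of -2.20 ± 0.32 in differentiating and -1.82 ± 0.33 in proliferating cells (edgeR adjusted p = 5.8e-05 and 5.2e-04). Trp53inp2 was higher in null proliferating cells (0.78 ± 0.09, 1.7e-05), where Trp53inp1 was not called. Ccng2, the relative of Ccng1, was lower in null proliferating cells (-0.75 ± 0.13, 4.3e-04), and Zmat1 was higher in null cells in both conditions (0.66 ± 0.13 in differentiating and 0.79 ± 0.14 in proliferating cells). Zmat4 was lower in both conditions, in proliferating cells only while intact proliferating replicate 1 was kept (edgeR adjusted p = 0.0478, against 0.129 without it), and rare, with 8 counts over the null and 217 counts over the intact differentiating libraries and 2 counts over the null and 13 counts over the intact proliferating libraries.

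Across the 16 libraries, which fall into the 4 groups and so mostly reflect differences between them, the 36 pairs among the 9 genes had a Pearson correlation of log2 CPM of 0.58 to 0.98 with a median of 0.90. The loosest pair was Ddit4l with Mdm2. Of 13435 other named genes, the nearest to Phlda3 was Cdkn1a (r = 0.995), and Polk, a translesion polymerase gene from the list of further targets, was the second nearest to Zmat3 (0.973), after N4bp1 (0.981). The nearest genes to the others were Ltbr for Ddit4l (0.982), Itpripl2 for Eda2r (0.989), Cdc34 for Mdm2 (0.976) and Ifitm3 for Ccng1 (0.992). They were Baz1a for Trp53inp1 (0.974), Tlnrd1 for Plk2 (0.967) and Irs1 for Aen (0.991).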

How the data were processed

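PolyA RNA of 16 libraries was sequenced as 75-base paired-end reads, per the labels' protocols. The authors deposited raw read counts per gene with the length of each gene model, 1 library per file. Reads had been demultiplexed with bcl2fastq and counted with featureCounts on mm10, per the submitters' processing notes. For the aligner, the annotation and the strand setting, nothing is given in the sources used here. A combined table with identical counts was not used. Of 27179 identifiers, 25275 matched a symbol in the RefSeq table of GRCm38.p6.

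The model was fitted with edgeR 4.0.16 (R 4.3.3) after filterByExpr at a minimum count of 10 and TMM scaling, with 1 mean per group over all 16 libraries and Benjamini-Hochberg adjustment over 15177 genes. The SE is the unshrunk log2 fold change over the square root of F. The interaction is the null response minus the intact response. The script was tested on simulated counts. RPKM was computed from the counts, TMM-scaled library sizes and deposited gene lengths, and log2 CPM for correlations used a prior count of 2. Alternatives were DESeq2 1.42.0, other scalings and filters, a replicate block and leaving out libraries.

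The 9 genes, the gene lists and the tests were chosen with earlier results of these data known. All 9 are named, with the 6 called genes of lowest adjusted p in each list, Trp53, Mdm4 and Cdkn1a, any other list gene with its values, and the gene most like each of the 9. Ddit4 and Polk were named after their values were seen. Isolates are said to come from 4 foetuses per genotype, but which libraries share a foetus is not given, so p-values measure the spread between these cultures. No spike-in is named, so changes are relative to the other genes.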

Additional observations from a re-analysis of the deposited data

Results flagged for a closer look

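Of the 36 sets of 4 libraries (9 genes in 4 groups), 7 held a library far from the other 3, judged by the gap to the nearest library over the whole range and set against Dixon's 95% limit. Chance flags about 1 in 20 such sets. In 4 of the 7, intact proliferating replicate 1 was the low library, with a gap of 0.978 of the range for Ccng1, 0.896 for Phlda3, 0.878 for Aen and 0.876 for Eda2r. These 4 are readings of 1 library and are not independent of each other. That library was picked out beforehand, so the chance rate does not apply to them. Phlda3 was also set apart in null proliferating replicate 4, which was high with a gap of 0.928 at 116 CPM. Trp53inp1 was low in null proliferating replicate 1 (0.841), at 263 CPM against 279 to 282 CPM in the other 3. Mdm2 was high in null differentiating replicate 1 (0.856), at 71.5 CPM against 69.2 to 69.5 CPM. Both of these gaps are small in level.

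The change upon differentiation differed between null and intact cells by the interaction test for Eda2r (2.42 on the log2 scale), Ddit4l (2.12) and Phlda3 (1.41). Eda2r fell by 1.90 ± 0.23 in null and by 4.32 ± 0.26 in intact cells, Ddit4l by 1.62 ± 0.14 in null and by 3.74 ± 0.16 in intact cells, and Phlda3 by 2.23 ± 0.24 in null and by 3.65 ± 0.25 in intact cells.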

How the results depend on the processing

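Most single-gene values kept their direction and their side of the threshold over the alternatives (1108 values), and the exceptions were 32 that gained the threshold, 14 that lost it and 7 that changed sign. The 9 genes fell in both genotypes under every alternative, save Trp53inp1 in null cells without null differentiating replicate 2. Over the fits that leave out 1 library each, 1 to 2 genes were higher and 0 to 4 lower in null proliferating cells, 4 to 7 were higher in null differentiating cells, and the interaction was called for 3 to 6. Without both intact replicate 1 libraries, 4 genes were lower in null proliferating cells, 8 higher in null differentiating cells and 7 had the interaction. With proliferating replicates 2 and 3 of each genotype summed and intact proliferating replicate 1 left out, an alternative added after seeing the data, 1 was higher and 2 lower in null proliferating cells and 5 had the interaction. Part of the moves without intact proliferating replicate 1 follows by construction from its low values. Beyond that, the cause of these moves was not tested.

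The values that changed sign were not called. Plk2 in proliferating cells, null over intact, was -0.017 under library size scaling, -0.16 without both intact replicate 1 libraries and -0.25 with the replicates summed, and -0.16 to 0.19 over the fits that leave out 1 library. Trp53inp1 there ranged from -0.18 to 0.036, Mdm2 was -0.0083 with the replicates summed, and Mdm2 in differentiating cells ranged from -0.080 to 0.024. The place of intact proliferating replicate 1 was 12.2% for Ddit4l and 33.8% for Ccng1 under library size scaling. Leaving out 1 library moved it over 35.6 to 37.8% for Ccng1, 52.3 to 68.1% for Trp53inp1 and 37.6 to 52.99% for Plk2. Library size scaling also made the called genes more often lower in null cells (60.6% against 47.5% in differentiating and 63.3% against 50.9% in proliferating cells).

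Residuals of differentiating and proliferating libraries with the same number correlated at 0.126, 0.123, -0.231 and 0.117 in intact cells (replicates 1 to 4) and at -0.0284 to 0.0331 in null cells. As not every pair was above 0.1, the numbers were not taken as pairs, and whether they mark shared foetuses is not known. With the number as a replicate block, Zmat3 was called in null differentiating cells (0.34, adjusted p = 0.0205), Trp53inp1 was not (0.39, adjusted p = 0.0609), and Trp53inp1 gained the interaction (0.47, adjusted p = 0.00673). Depth did not limit these genes, whose lowest count was 104. With 1 mismatch allowed, 5 of the 7 genes with a promoter window held a half-site, as did 5995 of the 11316 tested genes with a window.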
